A study of Mus musculus with 5 samples.

Results

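Limb mesenchyme of the mouse embryo was split by the Hox genes that each cell carried, and the cells with transcripts of Hoxa13 or Hoxd13 were compared with the cells with transcripts of Hoxa11. The members were 4579 cells, of 84440 cell barcodes in the 5 libraries of the series. They came from 1 forelimb and 1 hindlimb library of single cells, made with droplets and unique molecular identifiers (UMIs, which count captured RNA molecules). The cells were selected on UMI counts of Prrx1, Hoxa13, Hoxd13 and Hoxa11, measured in the same libraries. The rule took limb cells with 100 to 9000 genes, at most 10% mitochondrial UMIs and at least 1 UMI of Prrx1, a homeobox gene of limb mesenchyme. A cell was called autopod-gated when its Hoxa13 and Hoxd13 UMIs summed to at least 2 and it had no Hoxa11 UMI. A cell was called zeugopod-gated when it had at least 1 Hoxa11 UMI and none of Hoxa13 or Hoxd13. Of 54203 limb barcodes, 49801 passed the filter and 22911 also held Prrx1, and from these the gates took 2435 autopod-gated cells (1083 forelimb and 1352 hindlimb) and 2144 zeugopod-gated cells (983 forelimb and 1161 hindlimb).

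The series compared P6 penis with limbs, and the penis libraries were not used here. The labels give the limbs as C57BL/6N, whereas the study's methods name C57BL/6J for all mice. The embryonic day is 15 in the labels, and the study's text gives an age close to it in more than one form. Both limb libraries carried no allele or treatment, were taken from male embryos, and may come from the same embryos. The study's methods give the total number of embryos but not how they were divided between the libraries. P-values therefore rest on these 2 libraries alone and measure no spread between embryos. The names autopod and zeugopod refer to the gates alone, because no sample was dissected into segments.

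Hox genes of the A and D clusters are transcription factors that divide the limb along its length. The HOX13 proteins are needed for the autopod (wrist or ankle and digits), HOX11 proteins act in the zeugopod (forearm or shank), and MEIS proteins mark the stylopod nearest the body. In the early limb bud Hoxa11 and Hoxa13 are switched on in adjoining territories, and the cells of the digits are known for Hedgehog, BMP and retinoic acid signalling.

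Depth was alike in the gates. Median UMIs per cell were 6526 and 6785.5 in autopod-gated cells of forelimb and hindlimb, and 6694 and 7549 in zeugopod-gated cells. The 4 sums held 10348251 and 12824409 UMIs (autopod-gated) and 8643553 and 11415841 UMIs (zeugopod-gated). The Prrx1 cells in neither gate with no UMI of the 3 Hox genes, 8084 and 6536 cells, were shallower, with medians of 5689 and 6198.5 UMIs. The limb libraries shared 203 cell barcodes. Free RNA was estimated in cells with at least 3 of 10 white blood markers and no UMI of Prrx1, which should lack these Hox genes. In them Hoxa13 had a UMI in 1.13% and 0.985% of cells, Hoxd13 in 2.46% and 1.74% and Hoxa11 in 1.05% and 0.909%, against 9.21% and 14.3%, 18.8% and 21.4%, and 10.3% and 13.5% of the Prrx1 cells. The white blood marker cells had median depths of 6612.5 and 7706.5 UMIs and the Prrx1 cells 5790 and 6332. Leaving out white blood marker cells with a Prrx1 UMI can lower this background, while every gated cell had to carry Prrx1. Pairs of levels, shares or cell counts give the forelimb before the hindlimb unless the sentence names other groups. Pairs of call counts give genes higher before genes lower unless stated otherwise.

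The gate genes behaved as the rule made them, and these values carry no test. Hoxd13 stood at 235 and 245 CPM (UMIs of the gene scaled to a total of 1000000 in each sum) in the autopod-gated sums. Hoxa13 stood at 73.5 and 86.2 CPM there, and Hoxa11 at 140.5 and 135 CPM in the zeugopod-gated sums. Each was at 0 in the other gate by construction. Within the autopod gate 50.05% and 53.3% of cells held Hoxa13, 92.0% and 88.9% held Hoxd13, and 42.0% and 42.2% held both. Prrx1, which every member had to carry, was at 503 and 607 CPM in autopod-gated against 389 and 367 CPM in zeugopod-gated cells. A further 249 and 328 Prrx1 cells held Hoxa11 together with a HOX13 gene and were left out of both gates.

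The position of the thresholds was visible in the levels. Just inside the autopod gate, 605 and 684 cells had exactly 2 HOX13 UMIs. Just outside it, 1508 and 1627 cells had 1. Msx1, a homeobox gene of the distal limb, was at 98.8 and 78.8 CPM just inside and at 78.1 and 74.7 CPM just outside. Cells with 3 or more HOX13 UMIs had 114 and 97.5 CPM of Msx1. Shox2, a homeobox gene of the proximal limb skeleton, ran the other way, at 65.9 and 73.0 CPM just outside the autopod gate, 42.3 and 54.1 CPM just inside and 27.7 and 37.7 CPM with 3 or more HOX13 UMIs. In the zeugopod gate Shox2 was at 164 and 188 CPM in cells with 1 Hoxa11 UMI and at 243 and 213 CPM in cells with 2 or more. The cells just outside the autopod gate lay between the gates for both genes, nearer the autopod side.

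**Figure D1:**
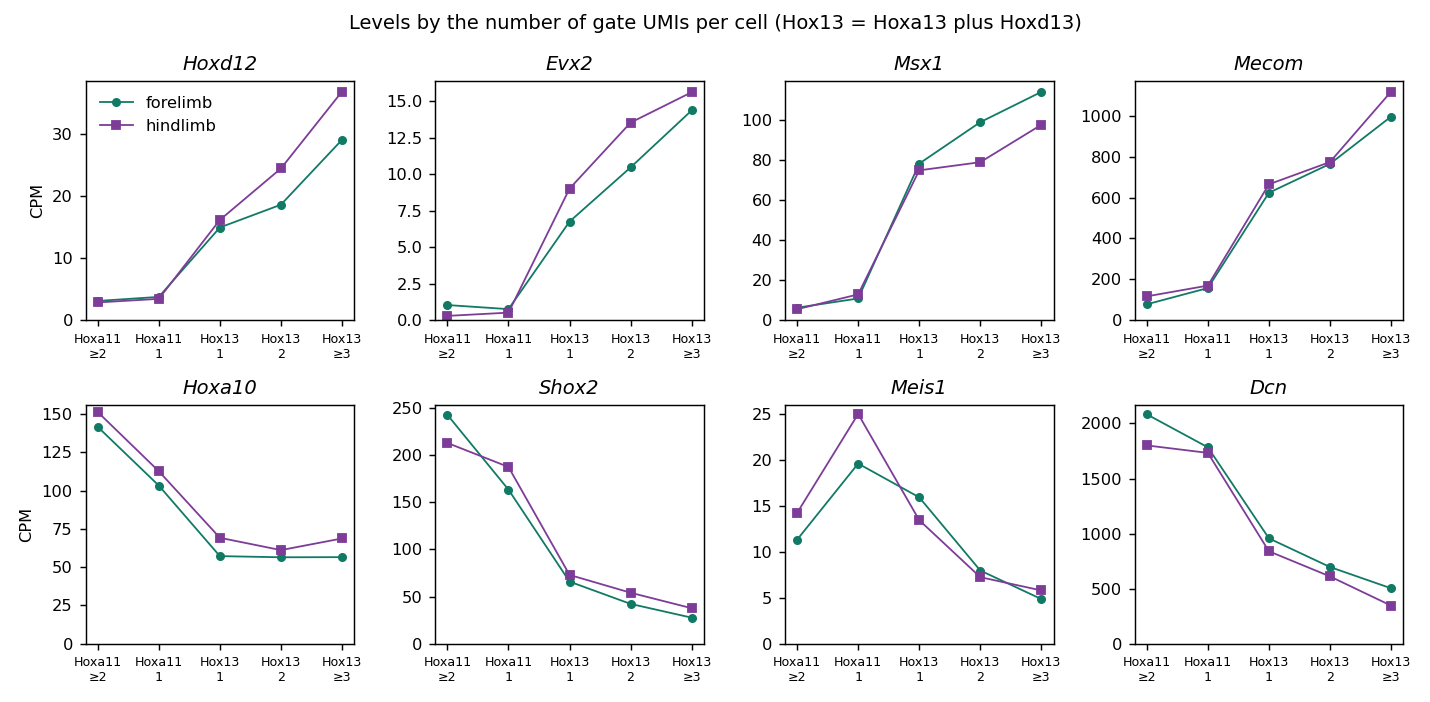
CPM (vertical axis, from 0) of 8 genes that the gates did not use, in sums of cells ordered by their gate UMIs, from 2 or more Hoxa11 UMIs through 1 Hoxa11 UMI to 1, 2 and 3 or more UMIs of Hoxa13 plus Hoxd13. Circles are the forelimb and squares the hindlimb. Hoxd12, Evx2, Msx1 and Mecom are higher on the HOX13 side, and Hoxa10, Shox2 and Dcn are higher on the Hoxa11 side. Meis1 is highest with 1 Hoxa11 UMI, at 19.6 and 24.95 CPM.

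All other genes were compared between the gates over both limbs. UMIs were summed per library and gate, giving 4 sums. These were tested with edgeR's quasi-likelihood test with the limb library as a block, so n = 2 limb libraries. Each gene had 1 residual degree of freedom, the difference of its autopod to zeugopod ratio between forelimb and hindlimb. The test combines this with a spread estimated over all genes, which counts as 8.88 prior degrees of freedom. A gene can therefore be called although its limbs differ or 1 limb holds no UMIs of it. A sum does not tell fewer cells with a transcript from less of it in each cell. A gene was called when its Benjamini-Hochberg adjusted p was under 0.05. Fold changes are log2 values of autopod-gated over zeugopod-gated cells with the standard error after ±, and single-limb log2 ratios carry 95% intervals for counting error only. Of 16329 genes tested, 1888 (11.6%) were higher and 1942 (11.9%) were lower in autopod-gated cells, and the median log2 fold change of all genes was -0.014. The count depended on the test. DESeq2 called 443 higher and 463 lower of the same 16329 genes, all of them among the edgeR calls. Without the limb block edgeR called 586 and 623 of them. Below, list counts by either of these fits are to be set beside these smaller numbers. The shares of 11.6% and 11.9% apply to counts by the main fit. At an adjusted p under 0.01 and a log2 fold change past 1, the p and fold limits that the study's methods set for cluster markers, 226 genes were higher (1.38%) and 294 lower (1.8%). Within each limb on its own, a 1.5-fold difference with at least 20 UMIs was met upward by 1360 forelimb genes (8.33% of those tested) and 1616 hindlimb genes (9.9%), of which 686 (4.2% of genes tested) were shared, 50.4% of the forelimb and 42.5% of the hindlimb genes. Downward it was met by 1154 (7.07%) and 1432 (8.77%) genes, of which 614 (3.76%) were shared, 53.2% and 42.9% of each. Another 82 genes (0.502%) passed that fold in opposite directions in the limbs. Sums that do not overlap were common. Both autopod-gated sums lay above both zeugopod-gated sums in 33.8% of genes tested and below them in 24.8%, and genes named for large called fold changes are close to certain to be separated, so separation is given below as a description only.

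**Figure D2:**
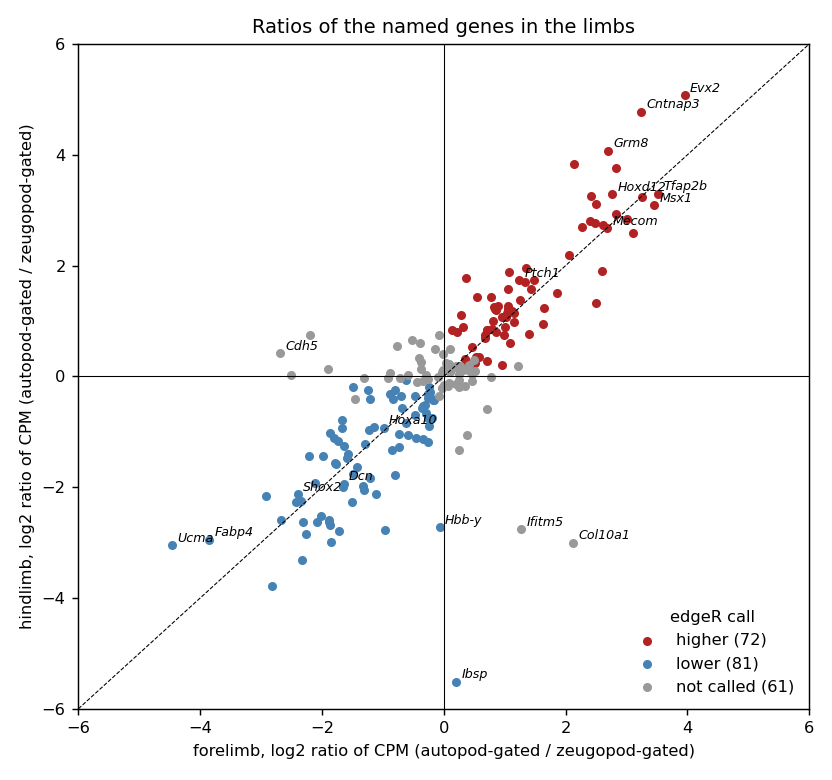
Log2 ratio of CPM, autopod-gated over zeugopod-gated, in the forelimb (horizontal) and the hindlimb (vertical) for the 214 named genes with UMIs in all 4 sums. Red points were called higher by edgeR (72), blue points lower (81) and grey points not called (61), and the dashed line marks equal ratios. All but 1 of the 153 called genes have the same sign in both limbs, and the exception is Ibsp.

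The HoxD cluster held genes of both directions. Its posterior genes Hoxd12, Hoxd11 and Hoxd10 were higher in autopod-gated cells, its anterior genes Hoxd8, Hoxd4 and Hoxd3 were lower, and Hoxd9 between them was not called. Of 7 members tested 3 were higher and 3 lower (11.6% and 11.9% of all genes), with a median log2 fold change of -0.48 beside -0.014 for all genes. The 3 higher calls stood under every setting that gave a test, but 1 gene alone was called lower by DESeq2 (of 7 tested), among cells of 4000 to 8000 UMIs (of 5), without dividing cells (of 5) and with a zeugopod gate at 2 Hoxa11 UMIs (of 6). In these last 3 settings, with fewer members tested, the median was 1.57, 1.27 and 0.60, and with cells thinned to 3000 UMIs before gating (2 lower of 5) it was 1.30. That thinned setting asks an autopod-gated cell for 1 HOX13 UMI after thinning. Hoxd12 was at 24.3 and 31.7 CPM in autopod-gated against 3.59 and 3.24 CPM in zeugopod-gated cells (log2 fold change 2.99 ± 0.17, adjusted p = 4.27e-06). Hoxd11 was at 111 and 104 CPM in autopod-gated against 43.3 and 26.7 CPM in zeugopod-gated cells (log2 fold change 1.60 ± 0.12, adjusted p = 1.95e-05). Hoxd10 was at 33.4 and 32.4 CPM in autopod-gated against 15.97 and 8.76 CPM in zeugopod-gated cells (log2 fold change 1.41 ± 0.17, adjusted p = 3.04e-04). For these 3 genes both autopod-gated sums lay above both zeugopod-gated sums. The fold change was largest for Hoxd12, the gene next to Hoxd13, and those of Hoxd11 and Hoxd10 differed by less than their standard errors together. Hoxd9 had 8.70 and 7.88 CPM in autopod-gated against 15.97 and 7.53 CPM in zeugopod-gated cells, a difference in the forelimb with almost none in the hindlimb (adjusted p = 0.158). Hoxd8 was at 2.996 and 3.12 CPM in autopod-gated against 11.8 and 8.50 CPM in zeugopod-gated cells (log2 fold change -1.75 ± 0.23, adjusted p = 5.65e-04). Hoxd4 (0.773 and 0.546 against 2.43 and 2.19 CPM, -1.86 ± 0.42) and Hoxd3 (0.966 and 1.01 against 3.36 and 2.19 CPM, -1.49 ± 0.38) had few UMIs, between 7 and 29 a sum. The gates did not overlap for Hoxd4 and Hoxd3 either. The annotated spans of these genes overlap on the same strand, and the sources used here do not state how reads in the shared stretch were counted. Hoxd1 had 2 or 3 UMIs in each sum and was not tested.

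Of the genes outside the HoxD cluster on either side of it, Evx2 and Lnpk, on the side of Hoxd13, were higher in autopod-gated cells. Evx2, a homeobox gene next to Hoxd13 on chromosome 2, had the largest fold change of the Hox lists, at 12.6 and 14.7 CPM in autopod-gated against 0.810 and 0.438 CPM in zeugopod-gated cells (log2 fold change 4.43 ± 0.31, adjusted p = 1.31e-05). It rested on 130 and 189 UMIs in autopod-gated and 7 and 5 UMIs in zeugopod-gated cells. Lnpk, the lunapark gene of endoplasmic reticulum junctions on the far side of Evx2, was at 72.5 and 76.5 CPM in autopod-gated against 35.2 and 34.5 CPM in zeugopod-gated cells (log2 fold change 1.04 ± 0.084, adjusted p = 2.69e-05). Mtx2, a mitochondrial import gene of the list, lies beyond the other end of the cluster, past Hoxd1 (chr2:74825803-74878431). It was at 60.1 and 63.3 CPM in autopod-gated against 59.8 and 70.8 CPM in zeugopod-gated cells and was not called (adjusted p = 0.278). In the GENCODE vM21 annotation of mm10, Evx2 lies at chr2:74652991-74659557 on the minus strand, Hoxd13 at chr2:74668310-74671599, Hoxd12 at chr2:74675013-74677705 and Hoxd10 at chr2:74691924-74695105 on the plus strand, and Lnpk at chr2:74520291-74579435 on the minus strand.

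The 250 bases before the start sites of Evx2, Hoxd12 and Hoxd10 are shown because these genes moved together with Hoxd13 without being used by the gates. They are RefSeq promoter sequences of GRCm38.p6 (the mm10 assembly), given 5′ to 3′ on the strand of each gene, and no annotated exon falls in them. Capitals mark the letters CAATAAA, a core sequence bound by HOX13 proteins, which was searched on both strands.
Evx2 (chr2:74659558-74659807, minus strand): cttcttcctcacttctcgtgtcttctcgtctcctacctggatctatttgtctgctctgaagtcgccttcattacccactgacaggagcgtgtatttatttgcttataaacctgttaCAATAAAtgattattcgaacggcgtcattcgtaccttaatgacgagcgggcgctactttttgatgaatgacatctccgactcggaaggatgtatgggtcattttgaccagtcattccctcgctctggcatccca
Hoxd12 (chr2:74674763-74675012, plus strand): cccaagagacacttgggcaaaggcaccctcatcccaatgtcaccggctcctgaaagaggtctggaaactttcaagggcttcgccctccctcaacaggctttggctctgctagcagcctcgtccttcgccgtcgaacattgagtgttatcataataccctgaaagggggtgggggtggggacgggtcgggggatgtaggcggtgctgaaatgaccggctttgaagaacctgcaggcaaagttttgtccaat
Hoxd10 (chr2:74691641-74691890, plus strand): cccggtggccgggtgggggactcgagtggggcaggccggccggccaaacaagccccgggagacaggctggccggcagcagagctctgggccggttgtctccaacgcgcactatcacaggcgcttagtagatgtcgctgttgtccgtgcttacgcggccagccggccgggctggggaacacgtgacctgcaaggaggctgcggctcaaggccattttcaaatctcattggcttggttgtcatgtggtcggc
CAATAAA occurred once before Evx2 and in neither of the other windows. Of 27025 promoters of the same length, 1194 (4.42%) held it on either strand, so the match before Evx2 is a description of these letters only.

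Outside the gate genes, Hoxa10 was the HoxA gene called. Hoxa10, the neighbour of Hoxa11 on the side away from Hoxa13, was lower in autopod-gated cells, at 56.5 and 65.6 CPM in autopod-gated against 112 and 125 CPM in zeugopod-gated cells (log2 fold change -1.01 ± 0.072, adjusted p = 1.34e-05). Hoxa9, one gene further, was at 34.9 and 41.3 CPM in autopod-gated against 35.1 and 31.3 CPM in zeugopod-gated cells and was not called (adjusted p = 0.378). The fall from Hoxa10 therefore stood at -0.99 and -0.93 in the limbs on the log2 scale while Hoxa9 stood at -0.007 and 0.40. Of 6 HoxA members tested, 1 was lower and none higher by edgeR and by DESeq2 (0 higher at an unadjusted p under 0.05), a share near the 11.9% of all genes, and Hoxa2, Hoxa3, Hoxa5 and Hoxa7 had at most 7.64 CPM in any sum. Hoxa5 was at 1.35 and 3.04 CPM in autopod-gated against 3.70 and 4.03 CPM in zeugopod-gated cells and missed the threshold (adjusted p = 0.0882).

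Among the noncoding genes of the HoxA cluster, Hottip and Hoxa11os were higher in autopod-gated cells and Hoxaas3 was not called. Hottip, a long noncoding RNA upstream of Hoxa13 at chr6:52262775-52267603, was at 4.25 and 4.29 CPM in autopod-gated against 0.810 and 0.613 CPM in zeugopod-gated cells (log2 fold change 2.53 ± 0.37, adjusted p = 0.00104). Its zeugopod-gated sums held 7 UMIs each and its autopod-gated sums 44 and 55. Hoxa11os, the RNA antisense to Hoxa11, was at 81.7 and 83.5 CPM in autopod-gated against 50.2 and 68.8 CPM in zeugopod-gated cells (log2 fold change 0.42 ± 0.10, adjusted p = 0.0155). It was detected in both gates, and within the zeugopod gate it stood at 45.1 and 62.1 CPM in cells with 1 Hoxa11 UMI and at 67.8 and 83.8 CPM in cells with 2 or more. The call of Hoxa11os was lost with DESeq2, without the limb block and under 5 other gates or cell filters, and with a zeugopod gate at 2 Hoxa11 UMIs its log2 fold change was 0.063, without a call. In Prrx1 cells with no UMI of the 3 gate genes Hoxa11os was at 25.5 and 33.6 CPM. Hoxa11os (chr6:52244393-52249799, plus strand) overlaps Hoxa11 (chr6:52242106-52245810, minus strand), and the sources used here do not state whether counting used the strand, so reads of the overlap cannot be told apart. Hoxaas3 had 8 to 26 UMIs a sum (log2 fold change -0.76 ± 0.47, adjusted p = 0.287). Of the 7 members tested in the list of Hox noncoding and neighbouring genes, 4 were higher and none lower by edgeR (11.6% and 11.9% of all genes). DESeq2 called 3 and 0 (0 lower at an unadjusted p under 0.05).

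HoxC genes were lower in autopod-gated cells. Hoxc8 to Hoxc11 were largely absent from the forelimb sums, whereas Hoxc4, Hoxc5 and Hoxc6 had UMIs in both limbs. In the forelimb Hoxc5 had 3 UMIs in autopod-gated and 9 in zeugopod-gated cells, and Hoxc6 11 and 16. The forelimb 95% counting intervals of the log2 ratio crossed 0 for Hoxc5 (-4.37 to 0.16) and Hoxc6 (-2.05 to 0.40). That of Hoxc4 did not (-4.09 to -0.88). In Prrx1 cells with no UMI of the 3 other gate genes Hoxc4 was at 5.48 and 7.20 CPM and Hoxc6 at 7.27 and 9.57 CPM. All 7 members tested were called lower by edgeR (11.9% of all genes), with a median log2 fold change of -2.74. In the GENCODE vM21 annotation the span of Hoxc5 overlaps those of Hoxc6, Hoxc8, Hoxc9 and Hoxc10 on the same strand. The sources used here do not state how reads in shared stretches were counted, so these genes may not be separate readings. Hoxc10 was at 0 in both forelimb sums and at 4.37 CPM in autopod-gated against 28.0 CPM in zeugopod-gated hindlimb cells. Hoxc11 was likewise at 0 in the forelimb and at 2.42 against 19.0 CPM in the hindlimb. Hoxc8, Hoxc9, Hoxc10 and Hoxc11 had at most 3 UMIs in a forelimb sum, so their calls rest on 1 library. In the hindlimb they were -2.54, -1.79, -2.68 and -2.98 on the log2 scale, with 95% counting intervals that stayed below 0. Hoxc4 had UMIs in both limbs, at 0.483 and 0.624 CPM in autopod-gated against 2.43 and 6.22 CPM in zeugopod-gated cells (log2 fold change -2.998 ± 0.41, adjusted p = 6.63e-04). Without the limb block 1 of the 7 was called, and by DESeq2 2. With cells thinned to 3000 UMIs before gating 1 HoxC gene had enough UMIs to be tested and was called lower. Among cells of 4000 to 8000 UMIs 0 could be tested.

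**Figure D3:**
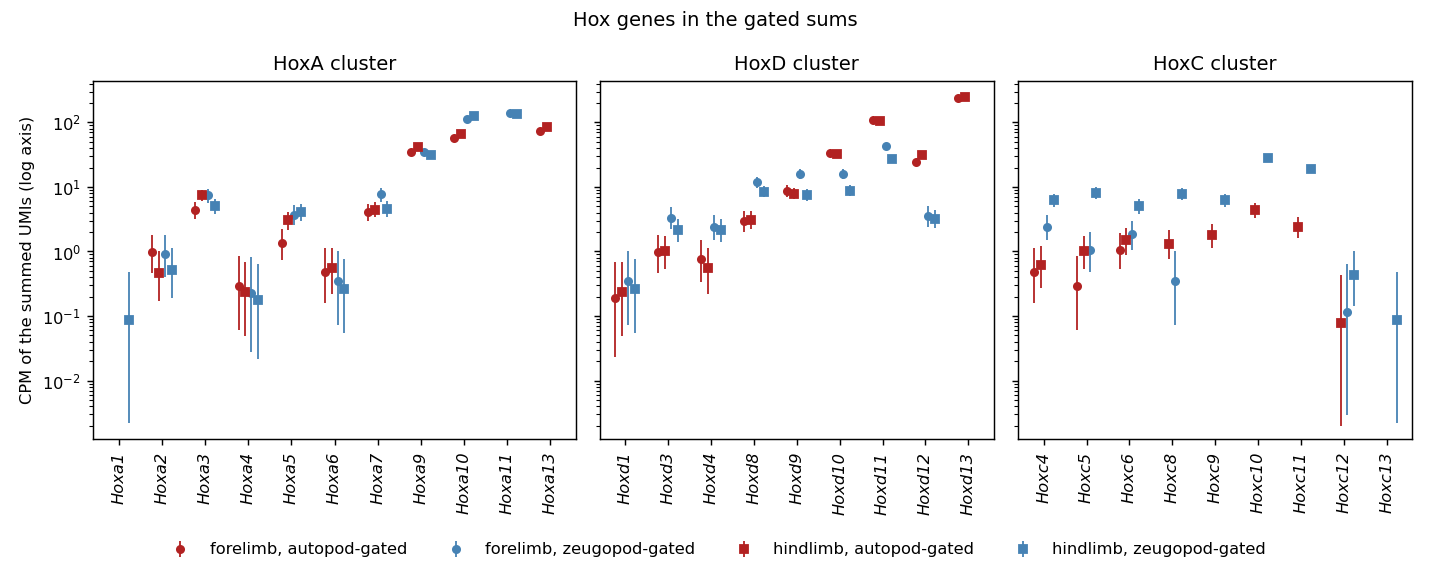
CPM on a log axis of the detected HoxA, HoxD and HoxC genes, in cluster order from the anterior end, for the 4 sums. Circles are the forelimb, squares the hindlimb, red is autopod-gated and blue is zeugopod-gated, and bars are 95% Poisson intervals for counting error. Sums at 0 are not drawn. Red lies above blue from Hoxd10 to Hoxd12 and below it from Hoxd3 to Hoxd8, and the HoxC genes of the hindlimb lie lower in red.

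Distal limb transcription factors were higher in autopod-gated cells. Of 13 members tested 9 were higher in autopod-gated cells and none was lower (11.6% and 11.9% of all genes), and the median log2 fold change was 0.85. At an unadjusted p under 0.05 the count lower was 0 as well, and DESeq2 called 5 higher and 0 lower. This list, like all the gene lists, was chosen with earlier results of these data known, so its counts are a description only. Tfap2b, an AP-2 factor of distal mesenchyme, was at 59.6 and 54.3 CPM in autopod-gated against 5.21 and 5.52 CPM in zeugopod-gated cells (log2 fold change 3.34 ± 0.13, adjusted p = 2.94e-07). Msx1 was at 107 and 89.6 CPM in autopod-gated against 9.72 and 10.5 CPM in zeugopod-gated cells (log2 fold change 3.20 ± 0.11, adjusted p = 1.87e-07), and Msx2, its paralogue, at 19.9 and 14.9 CPM in autopod-gated against 2.08 and 1.58 CPM in zeugopod-gated cells (log2 fold change 3.19 ± 0.21, adjusted p = 9.28e-06). In these 3 genes the autopod-gated sum was 8.52 to 11.5 times the zeugopod-gated sum of its limb. Lhx2, a LIM homeobox factor of the limb tip, was at 39.8 and 33.3 CPM in autopod-gated against 8.21 and 5.17 CPM in zeugopod-gated cells (log2 fold change 2.42 ± 0.14, adjusted p = 4.27e-06). Lhx9, Dlx5, Mycn, Sall1 and Tbx2 were the other members called higher. Hand2, a factor of the posterior limb, was at 55.4 and 55.2 CPM in autopod-gated against 38.6 and 51.9 CPM in zeugopod-gated cells and was not called (adjusted p = 0.161). Tbx3 was at 20.8 and 19.2 CPM in autopod-gated against 27.5 and 15.3 CPM in zeugopod-gated cells, lower in the forelimb and higher in the hindlimb by value, and was not called (adjusted p = 0.692). Dlx6 and Sall3 were not called and Sall4 had too few UMIs to be tested.

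In shares of cells the same genes differed at a fixed depth. With every cell thinned to 2000 UMIs, Msx1 had a UMI in 15.5% and 13.8% of autopod-gated and in 2.43% and 1.89% of zeugopod-gated cells. Unthinned, the shares were 30.3% and 28.9% against 5.80% and 4.65%. White blood marker cells without a Prrx1 UMI, the background, had Msx1 in 1.27% and 2.20% of cells unthinned and 0.285% and 0.691% thinned. The zeugopod-gated share stood above that background in both limbs. Thinning left out 6 and 2 autopod-gated and 11 and 3 zeugopod-gated cells. Hoxd12 had a UMI in 5.24% and 6.88% of thinned autopod-gated against 0.878% and 0.766% of thinned zeugopod-gated cells. Evx2 was found in 3.31% and 3.45% against 0.241% and 0.112%, and its zeugopod-gated shares lay near the thinned background of 0.101% and 0.139%. Shox2 was found in 5.06% and 6.14% of thinned autopod-gated and in 27.9% and 28.5% of thinned zeugopod-gated cells, with a thinned background of 1.06% and 1.09%.

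Among the proximal limb factors, Shox2 and the MEIS genes were higher in the zeugopod gate while most of the PBX, IRX and TBX members were not called. Of 13 tested, 4 were lower and 1 higher in autopod-gated cells, beside 11.9% and 11.6% of all genes, with a median of -0.054. The share higher was thus no larger than that of all genes. DESeq2 called 2 and edgeR without the limb block 3, all lower. Shox2 was at 34.4 and 44.6 CPM in autopod-gated against 181 and 195 CPM in zeugopod-gated cells (log2 fold change -2.31 ± 0.081, adjusted p = 1.87e-07). Meis1, a marker of the stylopod, was at 6.28 and 6.39 CPM in autopod-gated against 17.7 and 21.6 CPM in zeugopod-gated cells (log2 fold change -1.69 ± 0.16, adjusted p = 6.09e-05), and Meis3 at 4.83 and 5.22 CPM in autopod-gated against 10.6 and 9.81 CPM in zeugopod-gated cells (log2 fold change -1.07 ± 0.20, adjusted p = 0.00394). Meis2 was at 33.7 and 43.2 CPM in autopod-gated against 38.6 and 72.97 CPM in zeugopod-gated cells (log2 fold change -0.56 ± 0.13, adjusted p = 0.0109). For Shox2, Meis1 and Meis3 the 2 gates did not overlap, whereas the hindlimb autopod-gated sum of Meis2 lay above the forelimb zeugopod-gated sum. Pbx3, a cofactor of HOX proteins, was higher, at 171 and 224 CPM in autopod-gated against 147 and 129 CPM in zeugopod-gated cells (log2 fold change 0.46 ± 0.11, adjusted p = 0.0133). Tbx15 was at 104 and 113 CPM in autopod-gated against 128 and 112 CPM in zeugopod-gated cells, without a call (adjusted p = 0.121).

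Some of these genes were also read in the cells outside both gates. In Prrx1 cells with no UMI of the 3 gate genes Meis1 was at 34.2 and 40.4 CPM and Meis2 at 70.00 and 88.3 CPM, above both gated sums of the same limb. Shox2 was at 123 and 138 CPM, between the gates. Msx1 was at 19.2 and 18.97 CPM and Lhx2 at 7.56 and 7.90 CPM, close to the zeugopod side. Hoxd11 was at 31.6 and 20.3 CPM, below both gates in each limb. These cells were not part of any test.

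Of 5 factors of limb identity and of the dorsal and ventral sides, 2 were higher in autopod-gated cells and 2 lower (11.6% and 11.9% of all genes). The 2 higher calls, Tbx4 and Lmx1b, were lost with DESeq2, which called 2 lower, and without the limb block, where 1 was called lower. Tbx4, which is used in the hindlimb, was at 7.92 and 59.6 CPM in autopod-gated against 4.86 and 33.3 CPM in zeugopod-gated cells (log2 fold change 0.74 ± 0.12, adjusted p = 0.00146). Pitx1, the hindlimb identity factor, went the other way, at 0.773 and 49.98 CPM in autopod-gated against 0.926 and 113 CPM in zeugopod-gated cells (log2 fold change -1.21 ± 0.13, adjusted p = 1.59e-04), and its forelimb sums held 8 UMIs each. Its call therefore rests on the hindlimb. Tbx5, the forelimb counterpart, was at 94.6 and 2.65 CPM in autopod-gated against 68.7 and 2.80 CPM in zeugopod-gated cells and was not called (adjusted p = 0.0896). En1, a factor of the ventral limb, was at 6.18 and 5.46 CPM in autopod-gated against 16.7 and 16.99 CPM in zeugopod-gated cells (log2 fold change -1.59 ± 0.17, adjusted p = 1.38e-04). Lmx1b, a factor of the dorsal limb, was at 40.4 and 45.6 CPM in autopod-gated against 20.9 and 39.6 CPM in zeugopod-gated cells (log2 fold change 0.48 ± 0.15, adjusted p = 0.0495), just inside the threshold, with log2 ratios of 0.95 (95% interval 0.69 to 1.21) in the forelimb and 0.20 (95% interval 0.025 to 0.38) in the hindlimb. With cells thinned to 3000 UMIs before gating it was lower by value, at -0.35, and was not called.

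**Figure D4:**
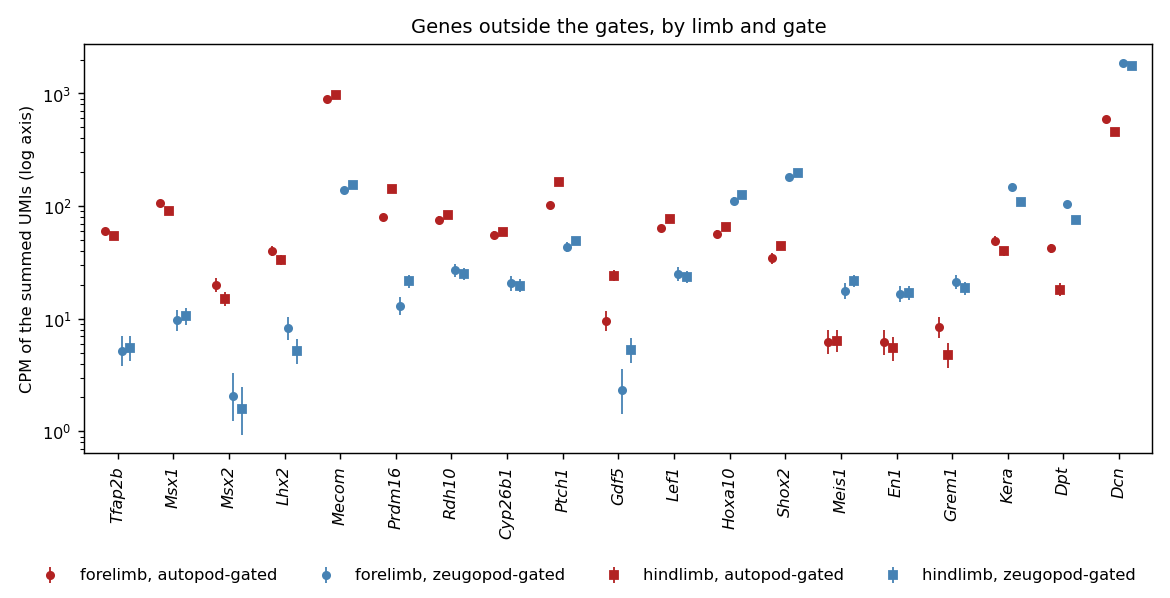
CPM on a log axis of 19 genes that the gates did not use, for the 4 sums. Circles are the forelimb, squares the hindlimb, red is autopod-gated and blue is zeugopod-gated, and bars are 95% Poisson intervals for counting error. From Tfap2b to Lef1 both red points of a gene lie above both blue points, and from Hoxa10 to Dcn both lie below them.

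Genes of the Hedgehog pathway were higher in autopod-gated cells. This pathway starts with secreted ligands that bind the receptor PTCH1 and ends in the GLI transcription factors, and Ptch1, Gli1 and Hhip are its usual transcriptional targets. Of 11 members tested 8 were higher and none lower, beside 11.6% and 11.9% of all genes (0 lower at an unadjusted p under 0.05). The median log2 fold change was 0.55, and DESeq2 called 3 higher and 0 lower. Without the limb block 4 were called, and the median was 0.23 with cells thinned to 3000 UMIs before gating (4 called of 10) and 0.34 with an autopod gate on Hoxa13 alone. Ptch1 was at 102 and 164 CPM in autopod-gated against 43.3 and 49.4 CPM in zeugopod-gated cells (log2 fold change 1.45 ± 0.10, adjusted p = 1.49e-05). Gli1 was at 26.9 and 37.9 CPM in autopod-gated against 14.9 and 16.4 CPM in zeugopod-gated cells (log2 fold change 0.99 ± 0.12, adjusted p = 3.57e-04). Hhip, which encodes a protein that binds and traps the ligands, was at 29.7 and 28.2 CPM in autopod-gated against 16.3 and 16.2 CPM in zeugopod-gated cells (log2 fold change 0.77 ± 0.11, adjusted p = 9.40e-04), and Gli3, the main GLI repressor of the limb, at 352 and 431 CPM in autopod-gated against 205 and 239 CPM in zeugopod-gated cells (log2 fold change 0.76 ± 0.058, adjusted p = 1.95e-05). Gli2, Gas1 and Smo were also called higher. The coreceptor genes Cdon (192 and 194 CPM in autopod-gated against 168 and 212 CPM in zeugopod-gated cells, adjusted p = 0.858) and Boc (106 and 125 CPM in autopod-gated against 88.5 and 110.2 CPM in zeugopod-gated cells, adjusted p = 0.123) were not called, nor was the ligand gene Ihh, and Shh had too few UMIs to be tested.

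More retinoic acid genes were higher than lower in autopod-gated cells. Retinoic acid is made from retinol by retinol and retinal dehydrogenases and is broken down by CYP26 enzymes, which keep the distal limb low in it. Of 16 tested members 9 were higher and 3 lower, beside 11.6% and 11.9% of all genes, and the median was 0.38. DESeq2 called 4 and 1 and edgeR without the limb block 6 and 2. Rdh10, which makes retinal from retinol, was at 75.5 and 83.4 CPM in autopod-gated against 26.96 and 24.97 CPM in zeugopod-gated cells (log2 fold change 1.56 ± 0.094, adjusted p = 5.06e-06). Cyp26b1, which breaks retinoic acid down, was at 55.6 and 58.8 CPM in autopod-gated against 20.7 and 19.6 CPM in zeugopod-gated cells (log2 fold change 1.45 ± 0.098, adjusted p = 1.09e-05). Stra6, the retinol uptake receptor, was at 6.57 and 5.46 CPM in autopod-gated against 1.16 and 2.19 CPM in zeugopod-gated cells (log2 fold change 1.74 ± 0.34, adjusted p = 0.00488), and Dhrs3, which turns retinal back into retinol, at 16.1 and 18.2 CPM in autopod-gated against 9.14 and 7.62 CPM in zeugopod-gated cells (log2 fold change 0.99 ± 0.16, adjusted p = 0.00185). The retinal dehydrogenases Aldh1a1 (0.290 and 0.390 CPM in autopod-gated against 1.85 and 2.37 CPM in zeugopod-gated cells, -2.65 ± 0.48) and Aldh1a3 (11.1 and 5.15 CPM in autopod-gated against 14.1 and 11.2 CPM in zeugopod-gated cells, -0.76 ± 0.21) were lower, and Aldh1a2 was not called. Crabp1, which binds retinoic acid in the cytoplasm, was also lower, at 229 and 285 CPM in autopod-gated against 534 and 558 CPM in zeugopod-gated cells (log2 fold change -1.15 ± 0.067, adjusted p = 4.36e-06). The receptors Rarg, Rxra and Rara were called higher, and Rarb (50.5 and 75.1 CPM in autopod-gated against 65.6 and 62.9 CPM in zeugopod-gated cells) was not (adjusted p = 0.613).

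Of 22 tested members of the BMP and GDF list 9 were higher and 3 lower, a lower share near the 11.9% of all genes, with a median of 0.31, and DESeq2 called 7 and 1 and edgeR without the limb block 5 and 3. Gdf5, a ligand of forming joints, was at 9.57 and 24.1 CPM in autopod-gated against 2.31 and 5.26 CPM in zeugopod-gated cells (log2 fold change 2.08 ± 0.18, adjusted p = 4.43e-05). Bmpr1b, its receptor in the digit skeleton, was at 204 and 301 CPM in autopod-gated against 97.99 and 124 CPM in zeugopod-gated cells (log2 fold change 1.11 ± 0.07, adjusted p = 6.13e-06). Smad6, an inhibitor of the pathway, was at 39.9 and 49.4 CPM in autopod-gated against 20.6 and 23.5 CPM in zeugopod-gated cells (log2 fold change 0.96 ± 0.1, adjusted p = 1.23e-04), and the target Id2 at 264 and 276 CPM in autopod-gated against 166 and 172 CPM in zeugopod-gated cells (log2 fold change 0.62 ± 0.06, adjusted p = 7.51e-05). Of the antagonists, Grem1 was at 8.41 and 4.76 CPM in autopod-gated against 21.2 and 18.7 CPM in zeugopod-gated cells (log2 fold change -1.69 ± 0.18, adjusted p = 1.59e-04) and Chrd at 6.67 and 6.16 CPM in autopod-gated against 11.1 and 12.6 CPM in zeugopod-gated cells (log2 fold change -0.95 ± 0.19, adjusted p = 0.00508). The antagonists Nog and Chrdl1 were not called. The ligand Bmp6 was lower, at 13.05 and 10.5 CPM in autopod-gated against 17.9 and 22.8 CPM in zeugopod-gated cells (log2 fold change -0.86 ± 0.17, adjusted p = 0.00506). The ligand Bmp2 (44.5 and 47.3 CPM in autopod-gated against 33.9 and 43.7 CPM in zeugopod-gated cells) and the pseudoreceptor gene Bambi (59.3 and 48.1 CPM in autopod-gated against 49.6 and 50.4 CPM in zeugopod-gated cells) were not called, with adjusted p of 0.221 and 0.834.

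Of 14 FGF genes tested, 5 were higher and 2 lower, with a median of 0.16. DESeq2 called 1 and edgeR without the limb block 2, all higher, and 2 lower of 14 is a share near the 11.9% of all genes. Fgf9 was at 8.60 and 8.11 CPM in autopod-gated against 2.78 and 4.20 CPM in zeugopod-gated cells (log2 fold change 1.18 ± 0.25, adjusted p = 0.00735), and the receptor genes Fgfr3 (0.85 ± 0.17), Fgfrl1 (0.72 ± 0.11) and Fgfr2 (0.44 ± 0.062) were higher by log2 fold changes under 1. The ligand genes Fgf7 (23.1 and 21.9 CPM in autopod-gated against 28.5 and 31.4 CPM in zeugopod-gated cells, -0.47 ± 0.11) and Fgf18 (33.4 and 30.6 CPM in autopod-gated against 46.2 and 39.2 CPM in zeugopod-gated cells, -0.47 ± 0.094) were lower. The receptor gene Fgfr1 was at 264 and 266 CPM in autopod-gated against 229 and 233 CPM in zeugopod-gated cells and was not called (adjusted p = 0.108), nor was the feedback gene Spry2 (adjusted p = 0.513).

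Wnt genes went both ways, 7 higher and 10 lower of 25 tested, beside 11.6% and 11.9% of all genes, with a median of -0.19. DESeq2 and edgeR without the limb block each called 4 and 4. Lef1, a transcription factor of the canonical pathway, was at 63.3 and 76.2 CPM in autopod-gated against 24.99 and 23.5 CPM in zeugopod-gated cells (log2 fold change 1.47 ± 0.10, adjusted p = 1.34e-05). Wnt5a, the ligand of limb outgrowth, was at 197 and 203 CPM in autopod-gated against 106 and 83.8 CPM in zeugopod-gated cells (log2 fold change 1.03 ± 0.087, adjusted p = 3.40e-05), and the antagonist Dkk1 at 13.2 and 12.6 CPM in autopod-gated against 6.36 and 4.20 CPM in zeugopod-gated cells (log2 fold change 1.26 ± 0.20, adjusted p = 0.00156). Wnt16 was at 4.93 and 5.69 CPM in autopod-gated against 2.43 and 2.72 CPM in zeugopod-gated cells (log2 fold change 0.99 ± 0.27, adjusted p = 0.0256). Among the lower genes were secreted antagonists of the frizzled-related family, Sfrp4 (1.84 and 1.01 CPM in autopod-gated against 9.83 and 4.91 CPM in zeugopod-gated cells, -2.40 ± 0.29), Sfrp5 (2.32 and 1.40 CPM in autopod-gated against 4.51 and 9.64 CPM in zeugopod-gated cells, -1.98 ± 0.39) and Frzb (1.45 and 2.18 CPM in autopod-gated against 4.63 and 3.77 CPM in zeugopod-gated cells, -1.23 ± 0.33). The agonist Rspo1 was also lower, at 2.90 and 1.72 CPM in autopod-gated against 9.72 and 3.85 CPM in zeugopod-gated cells (log2 fold change -1.54 ± 0.28, adjusted p = 0.00349). Axin2, the usual readout of canonical signalling, was at 45.3 and 48.97 CPM in autopod-gated against 34.1 and 42.7 CPM in zeugopod-gated cells and missed the threshold (adjusted p = 0.102), as did the antagonist Sfrp1 (adjusted p = 0.100).

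Guidance genes, which set the borders between groups of limb cells and guide nerves, were higher for 12 of 30 tested members and lower for 5. Among all genes tested the shares were 11.6% and 11.9%. The median of the list was 0.22, and DESeq2 called 7 and 3 and edgeR without the limb block 8 and 3. Sema3e was at 28.1 and 45.3 CPM in autopod-gated against 4.63 and 12.1 CPM in zeugopod-gated cells (log2 fold change 2.09 ± 0.16, adjusted p = 2.03e-05), and its fellow list member Plxna4, a plexin receptor, at 101 and 95.8 CPM in autopod-gated against 48.9 and 41.4 CPM in zeugopod-gated cells (log2 fold change 1.08 ± 0.079, adjusted p = 1.59e-05). Epha4, an ephrin receptor of the distal limb, was at 235 and 313 CPM in autopod-gated against 138 and 116 CPM in zeugopod-gated cells (log2 fold change 1.05 ± 0.12, adjusted p = 2.14e-04). Efnb3, a ligand, was at 33.4 and 35.9 CPM in autopod-gated against 16.7 and 19.3 CPM in zeugopod-gated cells (log2 fold change 0.89 ± 0.11, adjusted p = 3.25e-04). The lower genes were Sema3c (107 and 105 CPM in autopod-gated against 172 and 156 CPM in zeugopod-gated cells, -0.68 ± 0.066), the receptor gene Nrp1 (94.3 and 75.4 CPM in autopod-gated against 131 and 122 CPM in zeugopod-gated cells, -0.64 ± 0.078), Epha3 (-0.58 ± 0.088), Sema3d (-0.36 ± 0.088) and Epha5. Epha7, another ephrin receptor, was at 243 and 245 CPM in autopod-gated against 229.8 and 267 CPM in zeugopod-gated cells and was not called (adjusted p = 0.463).

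In the dermal fibroblast list 8 of 10 members were lower and none higher (0 higher at an unadjusted p under 0.05) by edgeR. Of all genes 11.9% were lower and 11.6% higher. The median of the list was -1.29, and DESeq2 called the same numbers of its members. Dcn, the proteoglycan decorin, was at 593 and 458 CPM in autopod-gated against 1851 and 1754 CPM in zeugopod-gated cells (log2 fold change -1.85 ± 0.073, adjusted p = 3.79e-07). Dpt (dermatopontin) was at 42.1 and 18.2 CPM in autopod-gated against 105 and 74.8 CPM in zeugopod-gated cells (log2 fold change -1.71 ± 0.15, adjusted p = 3.58e-05). Dpp4 (4.25 and 1.09 CPM in autopod-gated against 12.03 and 5.26 CPM in zeugopod-gated cells, -1.83 ± 0.27) and Pi16 (5.70 and 2.18 CPM in autopod-gated against 19.7 and 6.48 CPM in zeugopod-gated cells, -1.75 ± 0.21) mark fibroblasts of loose connective tissue. For Dcn, Dpt, Dpp4 and Pi16 both autopod-gated sums lay below both zeugopod-gated sums, as they did for 24.8% of genes tested. Ebf1 (980.3 and 1063 CPM in autopod-gated against 1047 and 1067 CPM in zeugopod-gated cells) and Ebf2 (165 and 201 CPM in autopod-gated against 182 and 143 CPM in zeugopod-gated cells) were not called (adjusted p = 0.163 and 0.489). In the mesenchyme list, the matrix genes Col6a1 (313 and 202 CPM in autopod-gated against 564 and 507 CPM in zeugopod-gated cells, -1.14 ± 0.098), Col6a2 (-0.88 ± 0.1), Col5a2 (-0.79 ± 0.067) and Fbln1 (-0.62 ± 0.13) were lower and Cdh11 (0.38 ± 0.062) and Pdgfra (0.28 ± 0.062) were higher, of 9 tested. Among all genes tested by edgeR 11.6% were higher and 11.9% lower. For the mesenchyme list DESeq2 called 1 higher and 4 lower, and edgeR without the limb block called 3, all lower. Twist1 (469 and 479.9 CPM in autopod-gated against 396 and 465 CPM in zeugopod-gated cells) and Mfap2 (543 and 497 CPM in autopod-gated against 553 and 573 CPM in zeugopod-gated cells), further mesenchyme genes, were detected at like levels in both gates and were not called.

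Of 13 tendon genes tested 4 were higher and 7 lower, beside 11.6% and 11.9% of all genes, with a median of -0.23. DESeq2 called 2 and 6 and edgeR without the limb block 3 and 5. The transcription factor genes Mkx (56.2 and 46.2 CPM in autopod-gated against 28.3 and 27.4 CPM in zeugopod-gated cells, 0.81 ± 0.10) and Six2 (7.63 and 6.39 CPM in autopod-gated against 2.89 and 3.77 CPM in zeugopod-gated cells, 0.99 ± 0.26) were higher, with Egr1, which the dissociation list also holds. The matrix and surface genes Kera (49.4 and 39.6 CPM in autopod-gated against 148 and 109 CPM in zeugopod-gated cells, log2 fold change -1.58 ± 0.075, adjusted p = 1.32e-06), Tnmd (18.9 and 19.2 CPM in autopod-gated against 69.4 and 38.9 CPM in zeugopod-gated cells, -1.499 ± 0.16), Thbs4 (21.4 and 16.9 CPM in autopod-gated against 63.6 and 44.5 CPM in zeugopod-gated cells, -1.54 ± 0.10) and Col14a1 (155 and 71.4 CPM in autopod-gated against 359 and 256 CPM in zeugopod-gated cells, -1.57 ± 0.12) were lower. Scx, the defining tendon factor, was at 28.8 and 34.2 CPM in autopod-gated against 41.3 and 21.7 CPM in zeugopod-gated cells and was not called (adjusted p = 0.980), nor was Egr2 (adjusted p = 0.824). The log2 ratios of Scx were -0.52 (95% interval -0.75 to -0.29) in the forelimb and 0.65 (95% interval 0.42 to 0.88) in the hindlimb, which lie on either side of 0.

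**Figure D5:**
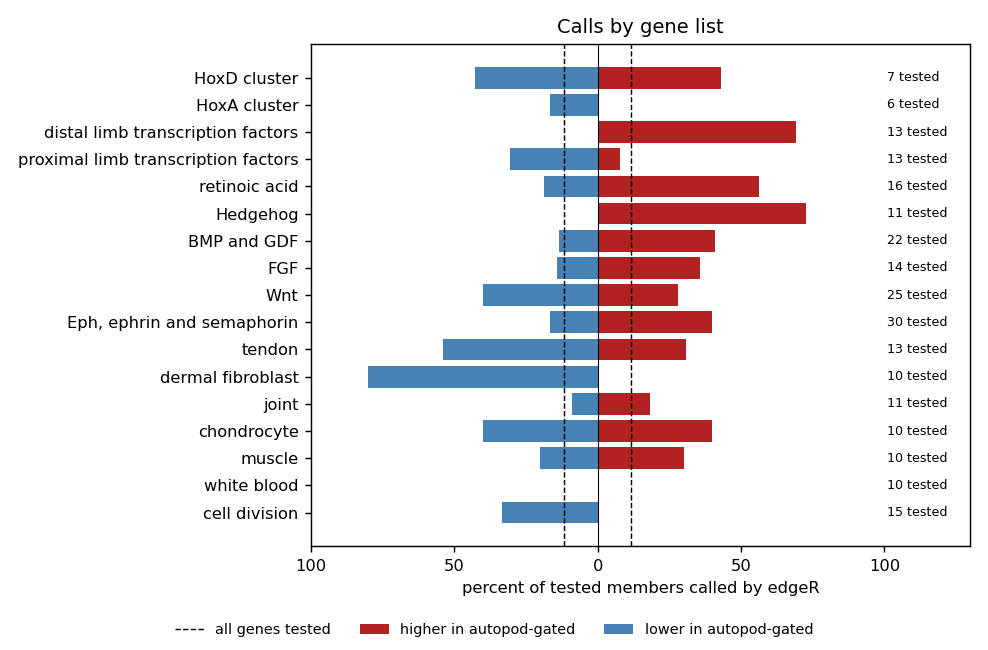
Share of the tested members of 17 gene lists that edgeR called higher (red, to the right) or lower (blue, to the left) in autopod-gated cells, in percent, with the number tested beside each bar. Dashed lines mark the shares among all 16329 genes tested, 11.6% higher and 11.9% lower. The lists were chosen with earlier results of these data known. Distal factors and Hedgehog genes lie to the right only and dermal fibroblast genes to the left only.

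The gates did not hold the same mix of cells. At least 4 of 10 chondrocyte markers were carried by 22.3% and 29.9% of autopod-gated and by 14.8% and 17.4% of zeugopod-gated cells. Yet by summed counts 4 chondrocyte markers were higher and 4 lower of 10 tested, beside 11.6% and 11.9% of all genes, with a median of -0.36. With a zeugopod gate at 2 Hoxa11 UMIs 5 were higher and 1 lower, with a median of 0.36. DESeq2 called 2 and 4 and edgeR without the limb block 1 and 1. The regulators Sox5 (217 and 309 CPM in autopod-gated against 119 and 135 CPM in zeugopod-gated cells, 0.98 ± 0.079) and Sox6 (135 and 237 CPM in autopod-gated against 84.1 and 141 CPM in zeugopod-gated cells, 0.66 ± 0.064) were among the higher ones, though Sox6 stood at -0.25 without the cells that carried other types. The matrix genes Acan (30.1 and 45.9 CPM in autopod-gated against 70.2 and 61.2 CPM in zeugopod-gated cells, -0.85 ± 0.15), Col11a1 (267 and 429.6 CPM in autopod-gated against 478 and 569 CPM in zeugopod-gated cells, -0.67 ± 0.085), Col2a1 (222 and 338 CPM in autopod-gated against 409 and 423 CPM in zeugopod-gated cells, -0.65 ± 0.10) and Col9a3 (-0.56 ± 0.11) were lower. Both of the last 2 turned with the zeugopod gate at 2 Hoxa11 UMIs, to 0.28 and 0.20, and Col2a1 also without the cells that carried other types, to 0.37. Sox6, Col2a1 and Col9a3 are among the markers by which those cells were left out. In cells with 2 or more Hoxa11 UMIs Col2a1 was at 206 and 235 CPM. Without the cells that carried chondrocyte or other foreign markers, 8 of 11 tested distal factors, 8 of 10 tested Hedgehog genes and none of 10 dermal genes were called higher, while 8 dermal genes were called lower. Erg, a factor of forming joints, was at 84.2 and 135 CPM in autopod-gated against 38.9 and 59.8 CPM in zeugopod-gated cells (log2 fold change 1.09 ± 0.075, adjusted p = 1.17e-05). Of 11 joint genes tested, Erg and Gdf5 were higher (2 of 11 beside 11.6% of all genes), Osr1 was lower (-0.31 ± 0.088, and 0.038 with thinned cells) and 8 were not called, with a median of 0.072. Without the limb block 0 joint genes were called by edgeR (2 higher and 1 lower at an unadjusted p under 0.05). Without the cells that carried other types 2 joint genes were higher and 3 lower, and over all settings the median ran from -0.195 to 0.27.

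Of 7 bone genes tested 2 were higher and 2 lower, beside 11.6% and 11.9% of all genes, with a median of 0.60. DESeq2 called 1 and 1 and edgeR without the limb block 2 and 1. Without dividing cells, and with a zeugopod gate at 2 Hoxa11 UMIs, 4 were higher and 1 lower of 6. The median ran from -0.24 to 1.00 over all settings. Runx2, the defining osteoblast factor, was at 76.7 and 76.3 CPM in autopod-gated against 34.4 and 38.9 CPM in zeugopod-gated cells (log2 fold change 1.01 ± 0.089, adjusted p = 4.39e-05). Col1a1, the main collagen of bone and connective tissue, was lower, at 2379 and 1652 CPM in autopod-gated against 3974 and 3975 CPM in zeugopod-gated cells (log2 fold change -1.06 ± 0.1, adjusted p = 6.63e-05). Ibsp, a gene of mature osteoblasts, was called lower (log2 fold change -4.64 ± 0.62, adjusted p = 6.11e-04) from 1 library alone. It had 650 UMIs in the hindlimb zeugopod-gated sum and 8 to 16 UMIs in each of the other 3 sums. Within that hindlimb sum it stood at 82.1 CPM in cells with 1 Hoxa11 UMI and 0.568 CPM in cells with 2 or more, so its level came from cells just inside the gate. Bglap, Bglap2 and Dmp1 had too few UMIs to be tested. Of 5 genes tested in the separate hypertrophic chondrocyte list, 1 (Spp1) was higher and 1 (Pth1r) lower, with a median of -0.28. DESeq2 called 0 of them (1 higher at an unadjusted p under 0.05). Spp1 was at 7.15 and 5.46 CPM in autopod-gated against 1.97 and 1.93 CPM in zeugopod-gated cells (log2 fold change 1.61 ± 0.28, adjusted p = 0.00283). Its call was lost with DESeq2, with thinned cells, at 4000 to 8000 UMIs and without cells carrying other types, and hindlimb cells with 1 HOX13 UMI, just outside the gate, had 86.3 CPM against 1.67 CPM just inside.

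Markers of other lineages and of dissociation were measured beside these results, and their part in them was not tested. None of the 10 white blood genes was called by edgeR or DESeq2 (0 at an unadjusted p under 0.05), and their summed level was 163 and 80.7 CPM in autopod-gated and 116 and 108 CPM in zeugopod-gated cells. With an autopod gate on Hoxa13 alone edgeR called 1 lower. It called 1 higher with thinned cells (of 7 tested) and 1 higher at 4000 to 8000 UMIs (of 8). Endothelial genes summed to 67.0 and 105 against 188 and 103 CPM, with 2 of 10 lower beside 11.9% of all genes. DESeq2, edgeR without the limb block and edgeR with an autopod gate on Hoxa13 alone called 0 endothelial genes (1, 4 and 2 lower at an unadjusted p under 0.05). Pericyte and smooth muscle genes summed to 181 and 201 against 242 and 233 CPM. Of 10 tested, 5 were lower (Kcnj8, Rgs5, Abcc9, Acta2 and Tagln), beside 11.9% of all genes, with a median of -0.38 and 3 lower by DESeq2. With an autopod gate on Hoxa13 alone edgeR called 0 of them (3 lower at an unadjusted p under 0.05). The log2 fold change of Rgs5 was 0.60, without a call, with cells thinned to 3000 UMIs before gating. Muscle genes summed to 270.3 and 203 against 249.9 and 105 CPM, with 3 higher and 2 lower of 10 beside 11.6% and 11.9% of all genes. DESeq2 called 1 muscle gene, higher, and edgeR without the limb block 1, lower. With thinned cells, at 4000 to 8000 UMIs and without the cells that carried other types edgeR called 0 of 6 (2, 0 and 1 at an unadjusted p under 0.05). Among the muscle genes called higher, Acta1 was at 73.4 CPM in forelimb cells with 2 HOX13 UMIs and 3.23 CPM with 3 or more, and Ttn at 95.1 and 20.9 CPM in the hindlimb. Without the cells that carried other types, which muscle markers also choose, Acta1 and Ttn were at -0.65 and -0.11 on the log2 scale. Glial genes summed to 156 and 172 against 133 and 148 CPM, and keratinocyte genes to 60.9 and 75.4 against 47.7 and 46.7 CPM. Globins and other red blood genes, which limb mesenchyme does not make, summed to 5273 and 5166 against 6591 and 7701 CPM, with 5 of 10 lower beside 11.9% of all genes. This direction depended on the gate and the depth. With cells thinned to 3000 UMIs before gating 7 of 9 red blood genes were called, all higher, with a median of 0.77, and with an autopod gate at 1 UMI 1 was called, also higher. Immediate early and dissociation genes summed to 6208 and 5500 against 4677 and 5085 CPM, with 4 higher and 1 lower of 12 beside 11.6% and 11.9% of all genes. Egr1 (0.41 ± 0.065) and Fos (0.32 ± 0.067) led the higher genes, while DESeq2 and edgeR without the limb block each called 1, higher. Cells with at least 2 of 6 division genes made up 37.9% and 35.8% of autopod-gated and 36.4% and 39.4% of zeugopod-gated cells. Of 15 division genes 5 were lower, beside 11.9% of all genes, with log2 fold changes no further from 0 than -0.38 for Mcm2. Among cells of 4000 to 8000 UMIs 9 division genes were higher and 1 lower, with a median of 0.39, and DESeq2 and edgeR without the limb block called 0 (1 and 4 at an unadjusted p under 0.05, all lower). Median mitochondrial shares were 3.60% and 3.48% against 3.75% and 3.60%.

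Outside the lists, the 12 genes with the largest positive fold changes, at least 100 UMIs and 1 direction in both limbs are given here. Mecom, a zinc finger factor, was at 889 and 974 CPM in autopod-gated against 139 and 152 CPM in zeugopod-gated cells (log2 fold change 2.62 ± 0.057, adjusted p = 6.17e-09), a log2 ratio of 2.68 and 2.68 in the limbs. Prdm16, its paralogue, was at 80.1 and 142 CPM in autopod-gated against 13.1 and 21.5 CPM in zeugopod-gated cells (log2 fold change 2.62 ± 0.088, adjusted p = 1.43e-07). Neither gene overlapped between the gates. Mecomos, annotated as antisense to Mecom, was also higher (2.72 ± 0.22), and its reads could not be told apart from those of Mecom where they overlap without a strand. Grm8, a metabotropic glutamate receptor, was at 34.3 and 78.1 CPM in autopod-gated against 5.32 and 4.64 CPM in zeugopod-gated cells (log2 fold change 3.43 ± 0.23, adjusted p = 1.09e-05). Cntnap3, a contactin-associated adhesion protein, had the largest positive fold change of these 12, at 6.57 and 7.17 CPM in autopod-gated against 0.694 and 0.263 CPM in zeugopod-gated cells (log2 fold change 3.84 ± 0.41, adjusted p = 1.43e-04), from 6 and 3 UMIs in the zeugopod-gated sums. The homeobox gene Dbx2 was at 13.1 and 12.1 CPM in autopod-gated against 1.85 and 1.58 CPM in zeugopod-gated cells (2.82 ± 0.24), and Tfap2a, a relative of Tfap2b, at 8.02 and 8.34 CPM in autopod-gated against 1.504 and 0.876 CPM in zeugopod-gated cells (2.76 ± 0.31). The remaining 5 were Pkhd1 (3.29 ± 0.42), Lsr (2.83 ± 0.33), Galnt9 (2.74 ± 0.33), Nmu (2.66 ± 0.42) and Ano4 (2.57 ± 0.31), all below 8 CPM in every sum.

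The 12 genes with the largest negative fold changes outside the lists, chosen in the same way, follow. Ucma, a cartilage matrix protein, was at 1.26 and 1.09 CPM in autopod-gated against 27.7 and 9.02 CPM in zeugopod-gated cells (log2 fold change -3.88 ± 0.30, adjusted p = 2.03e-05). Fabp4, a fatty acid binding protein of adipocytes and vessels, was at 3.19 and 2.03 CPM in autopod-gated against 46.3 and 15.7 CPM in zeugopod-gated cells (log2 fold change -3.53 ± 0.20, adjusted p = 4.27e-06), and among cells of 4000 to 8000 UMIs its log2 fold change was 0.26, without a call. Ly6a, a surface protein of progenitor and endothelial cells, was at 3.19 and 0.780 CPM in autopod-gated against 22.4 and 10.8 CPM in zeugopod-gated cells (log2 fold change -3.19 ± 0.25, adjusted p = 2.48e-05). All 3 had 33 UMIs or fewer in each autopod-gated sum. C1qtnf3 was at 12.1 and 13.8 CPM in autopod-gated against 91.2 and 61.8 CPM in zeugopod-gated cells (log2 fold change -2.58 ± 0.15, adjusted p = 4.36e-06). Col5a3 (15.8 and 4.68 CPM in autopod-gated against 57.4 and 29.96 CPM in zeugopod-gated cells, -2.24 ± 0.17) and Col6a5 (1.64 and 1.17 CPM in autopod-gated against 5.44 and 8.06 CPM in zeugopod-gated cells, -2.33 ± 0.33) encode collagen chains, and Sp5 (2.03 and 0.780 CPM in autopod-gated against 8.56 and 4.82 CPM in zeugopod-gated cells, -2.34 ± 0.31) encodes a target factor of Wnt signalling. Xkr4 was at 7.15 and 6.78 CPM in autopod-gated against 26.4 and 40.9 CPM in zeugopod-gated cells (log2 fold change -2.33 ± 0.17, adjusted p = 1.50e-05). Slc22a22 (-2.57 ± 0.35), Pcdh20 (-2.34 ± 0.32), Pi15 (-2.32 ± 0.28) and Tmem132e (-2.25 ± 0.36) completed the 12, and each lay below 9 CPM in every sum.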

How the data were processed

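The authors made single-cell libraries of forelimb and hindlimb with the 10X 3′ v3.1 kit and, per the labels and the study's methods, aligned to mm10 and counted with Cell Ranger 7.0.0. The deposited values are raw counts of UMIs for the barcodes called as cells. The annotation release and the counting of introns are not given in the sources used here, and no authors' cell annotation was used. Doublets were not called, and cells with UMIs of both gates were left out. The members, gene lists and tests were chosen with earlier results of these data known.

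UMIs of the members were summed per library and gate, filtered with filterByExpr by gate, scaled by TMM and tested with edgeR 4.0.16 (R 4.3.3) with terms for limb and gate and Benjamini-Hochberg adjustment over 16333 genes, which include the 4 gate genes. Counts of calls leave these 4 out and cover 16329 genes. Standard errors were derived from the fold change and the F statistic of the test. Same-limb sums come from the same library, which is why limb is a block. Ratios within a limb have exact binomial intervals, CPM values exact Poisson intervals and shares of cells with a UMI exact binomial intervals, all 95% and for counting error only. On counts simulated for this comparison over 16333 genes, edgeR recovered 61.2%, 82.1% and 98.5% of genes changed by 0.5, 1 and 2 on the log2 scale with 6 false calls, and DESeq2 1.42.0 recovered 11.9%, 52.2% and 86.4% with none. The simulation used a single dispersion of 0.00545 for all genes and changed only genes above a minimum mean count. It held no genes whose gate ratio differed between the limbs. Its false calls therefore give no error rate for the calls reported here.

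Genes were named as follows: the gate genes, every detected HoxA, HoxC and HoxD gene and neighbour, up to 4 called members of each other list in either direction with the largest fold changes, the 2 uncalled members with most CPM, the 12 genes outside the lists with the largest fold changes in either direction, at least 100 UMIs and the same direction in both limbs (Gm, Rik and mt- genes left out), and the listed genes whose limbs differed most. The text gives most of these, and a few are not reported here.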

Additional observations from a re-analysis of the deposited data

Results flagged for a closer look

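In 5 of 313 listed genes with at least 100 UMIs (1.60%) the ratio of autopod-gated to zeugopod-gated cells passed 1.5-fold in opposite directions in forelimb and hindlimb. Of all 13731 genes tested with at least 100 UMIs, 61 (0.444%) did so. With 1 library a limb the difference between limbs was not tested. Col10a1, a collagen of hypertrophic cartilage, was at 11.1 CPM in autopod-gated against 2.55 CPM in zeugopod-gated forelimb cells (log2 ratio 2.13) and at 2.34 against 18.8 CPM in the hindlimb (-3.01). Ifitm5, an osteoblast gene, was at 2.51 against 1.04 CPM (1.27) and at 1.72 against 11.7 CPM (-2.76). Its forelimb zeugopod-gated sum held 9 UMIs. In the hindlimb zeugopod-gated sum Ibsp, Ifitm5 and Col10a1 were all at their highest of the 4 sums. These levels came mainly from cells just inside the gate. Col10a1 stood at 26.9 CPM in cells with 1 Hoxa11 UMI and 0.852 CPM in cells with 2 or more, Ifitm5 at 15.5 and 3.12 CPM and Ibsp at 82.1 and 0.568 CPM, and with the gate at 2 Hoxa11 UMIs the log2 fold change of Col10a1 over both limbs was 2.01.

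Cd93, an endothelial gene, was at 2.42 against 11.1 CPM in the forelimb (log2 ratio -2.20) and at 6.78 against 4.03 CPM in the hindlimb (0.75). The white blood genes Tyrobp, at 27.3 against 17.9 CPM in the forelimb (0.60) and 10.8 against 20.3 CPM in the hindlimb (-0.92), and Laptm5, at 9.76 against 5.67 CPM (0.78) and 4.21 against 6.75 CPM (-0.68), had the opposite pattern to Cd93. None of the 5 genes was called by edgeR over both limbs, and none belongs to limb mesenchyme by the lists used here.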

How the results depend on the processing

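The 1888 genes higher and 1942 lower became 1050 and 1198 with a zeugopod gate at 2 Hoxa11 UMIs, 756 and 914 with cells thinned to 3000 UMIs before gating (at least 1 HOX13 UMI after thinning for the autopod gate), and 1229 higher with cells of 4000 to 8000 UMIs. Without the replicate block for the limb library they were 586 and 623, with DESeq2 443 and 463, and at the limits of the study's methods (adjusted p under 0.01 and a log2 fold change past 1) 226 and 294. The other settings, which were RLE size factors, no filter on low counts, the study's cell filter, an autopod gate at 1 UMI or on Hoxa13 alone, and cells without foreign or division markers, left both counts within 1.5 times. The zeugopod gate at 2 UMIs left 186 and 274 zeugopod-gated cells, and thinning left 1272 and 1514 autopod-gated and 379 and 441 zeugopod-gated cells. The cause of these changes was not tested. Of the genes called in the block fit, 31.0% of the higher and 32.1% of the lower were called without the block, and all genes called without it were called with it. At the limits of the study's methods 48 calls of named genes were lost. Among the named genes DESeq2 ended 34 calls, the fit without the block 40, and the stricter zeugopod gate 12. Thinned cells ended 19 and cells of 4000 to 8000 UMIs 14, and in each of these last 3 settings 3 more genes turned direction. Of all the fits, gates and cell filters tried, these included, 8 ended or turned the call of Lmx1b, 7 each those of Hoxa11os, Mcm2 and Osr1, 6 each those of Frzb and Ttn and 5 each those of Acta1, Acta2, Aldh1a3, Wnt16, Sema3d and Pdgfra. Direction turned for Lmx1b (-0.35) and Osr1 (0.038) with thinned cells, Rgs5 (0.60 with thinned cells and 0.58 without other types), Sox6 (-0.25 without cells carrying other types), Col2a1 (0.28 with the zeugopod gate at 2 UMIs and 0.37 without other types, a filter that uses Col2a1 and Sox6 themselves), Col9a3 (0.20) and Col10a1 (2.01) with that zeugopod gate, Fabp4 (0.26), Acta1 (-0.37) and Ttn (-0.12) at 4000 to 8000 UMIs, Acta1 (-0.65) and Ttn (-0.11) without other types, Acta1 without dividing cells (-0.091) and Ibsp (0.20 without the hindlimb and -5.51 without the forelimb). With 1 limb left out no test is possible, so counts of calls have no value there, and every other named gene called over both limbs kept its sign in each limb where it had UMIs in both gates. Over all settings, including those with fewer members tested, the median log2 fold change ran from 0.79 to 1.46 for distal factors, 0.23 to 0.66 for Hedgehog, 0.31 to 0.54 for retinoic acid, 0.26 to 0.41 for BMP and GDF, 0.053 to 0.31 for FGF, -0.47 to -0.095 for Wnt, 0.028 to 0.32 for guidance, -0.32 to -0.19 for tendon and -1.49 to -0.95 for dermal fibroblast genes, and from -0.34 to 0.021 for proximal factors and -0.54 to 0.069 for HoxA genes. The mean ratio of autopod-gated to zeugopod-gated shares of cells with a UMI moved from 6.84 to 7.98 for Msx1 and from 0.199 to 0.240 for Shox2 at 4000 UMIs.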
